A study of Mus musculus with 9 samples.

Results

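Vimentin and 7 keratins were followed across mouse gut organoids: Vim, the type II keratins Krt7, Krt8 and Krt80, and the type I keratins Krt18, Krt19, Krt20 and Krt23. These 8 genes were taken by symbol from the 23955 rows of the count table, and they were chosen with their values in these samples known. Organoids are gut epithelial cultures grown in a gel, and RNA-seq was performed on 9 samples in 3 groups of 3 biological replicates. All groups came from APCmin/+ mice, which carry 1 mutated copy of Apc, a brake on Wnt signaling. MIN organoids were grown from the normal-appearing epithelium next to the tumors, adenoma organoids from the adenomatous polyps, and the sulindac group from adenomatous polyps with treatment by sulindac, a non-steroidal anti-inflammatory drug (NSAID) that inhibits cyclooxygenases. The medium of all groups held Noggin, EGF, bFGF, R-spondin1 and B27. The age of the mice, the gut segment, the dose and duration of sulindac for the organoids and the number of mice behind the replicates are not given in the sources used here, and no sulindac-treated MIN sample or vehicle-treated adenoma sample was analysed here.

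Vimentin and keratins build intermediate filaments, the rope-like part of the cytoskeleton. Keratin filaments form only from pairs of a type I and a type II keratin, and KRT8 with KRT18 is the main pair of simple epithelia such as the gut lining. Vimentin assembles with itself, is typical of mesenchymal cells and is widely read as a marker of the epithelial-mesenchymal transition (EMT). KRT20 is made mostly by differentiated intestinal epithelial cells. KRT7 is typical of ductal and other simple epithelia and is usually sparse in the intestinal lining.

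Levels are stated in CPM, the normalised read count scaled to a common library size, with the totals of the 9 samples adjusted by the TMM method. Totals per sample lay between 30881206 and 48412477, so that 3 counts, taken as the floor of detection, corresponded to 0.0641 to 0.10 CPM. This floor covers counting error only. Fold changes came from edgeR's quasi-likelihood test over all genes with enough counts, at a false discovery rate (FDR) of 1%. No p-values are given for the 8 genes, since they were chosen with the same contrasts in view, and their values are a description. Differences in a culture's cell make-up and in RNA per cell cannot be told apart in these bulk samples.

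Of the 8 genes, Vim differed most between sulindac-treated and untreated adenoma organoids. In MIN, Vim stood at 4.77, 3.29 and 2.92 CPM in replicates 1, 2 and 3. The adenoma replicates had 105.3, 260.2 and 158.0 CPM. With sulindac the values were 2.63, 8.50 and 3.93 CPM. Each adenoma sample was thus far above every other sample, and the sulindac and MIN samples overlapped. The lowest value, in sulindac replicate 1, still rested on 79 counts, well over the floor of 3. The log2 fold change of Vim was 5.58 (standard error 0.38) in adenoma over MIN, which is 47.7-fold. In sulindac over adenoma the log2 fold change was -5.11 (standard error 0.48), a 34.6-fold lower level. Without sulindac replicate 2, the highest of its group, this value was -5.70. The sulindac group differed from MIN by 0.45 (standard error 0.41) on the log2 scale. That difference turned to -0.15 when sulindac replicate 2 was left out.

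**Figure D1:**
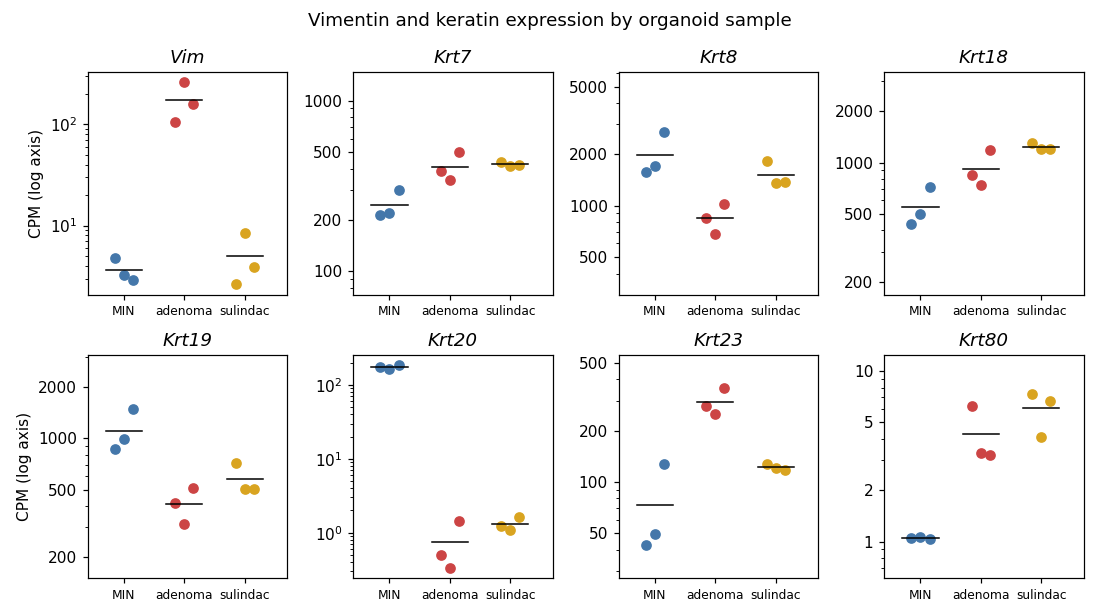
Expression of Vim and the 7 keratins in CPM (log axes of different range) in each of the 9 organoid samples, with the points of a group in the order of replicates 1 to 3 and a line at the group mean. Vim is high in the adenoma samples only, between 105.3 and 260.2 CPM, and Krt20 in the MIN samples only, between 165.4 and 185.5 CPM.

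Krt20 showed the opposite order between MIN and adenoma, and it stayed low with sulindac. The MIN samples had 173.8, 165.4 and 185.5 CPM, the narrowest spread of a highly expressed keratin in that group. The adenoma samples had 0.5055, 0.335 and 1.42 CPM, from 18, 12 and 49 counts. The sulindac samples had 1.23, 1.10 and 1.63 CPM, from 37, 36 and 56 counts. No MIN sample came near either other group, whereas adenoma replicate 3 lay among the sulindac samples. The log2 fold change was -7.86 (standard error 0.39) in adenoma over MIN and -7.04 (standard error 0.15) in sulindac over MIN. Adenoma replicate 3 set part of the first value, which was -8.69 without it. In sulindac over adenoma the log2 fold change was 0.83 (standard error 0.49), and 1.64 without adenoma replicate 3. The sulindac samples thus overlapped MIN for Vim, whereas for Krt20 the mean of MIN was 132.4-fold that of the sulindac group.

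The promoter windows of Vim and Krt20, the 2 genes with the widest range, and of the filament partners Krt8 and Krt18 are shown for reference. They run from 250 bases before to 50 bases after the annotated start (RefSeq, GRCm38.p6), and 6 of the 8 genes had such a window (not Krt19 and Krt80). Capitals mark matches to the motifs searched.
Vim, chr2:13574061-13574360, plus strand: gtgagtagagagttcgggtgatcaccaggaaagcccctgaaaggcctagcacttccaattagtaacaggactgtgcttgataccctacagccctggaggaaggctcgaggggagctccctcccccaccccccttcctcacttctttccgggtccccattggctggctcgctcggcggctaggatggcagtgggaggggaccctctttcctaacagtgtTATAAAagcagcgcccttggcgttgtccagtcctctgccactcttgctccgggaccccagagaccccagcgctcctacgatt
Krt20, chr11:99438104-99438403, minus strand: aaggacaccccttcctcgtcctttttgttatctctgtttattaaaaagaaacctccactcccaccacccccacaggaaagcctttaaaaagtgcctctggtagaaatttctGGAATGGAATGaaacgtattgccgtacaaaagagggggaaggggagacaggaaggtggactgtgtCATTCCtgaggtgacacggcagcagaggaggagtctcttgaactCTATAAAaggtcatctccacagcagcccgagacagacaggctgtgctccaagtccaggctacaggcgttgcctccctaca
Krt8, chr15:102004293-102004592, minus strand: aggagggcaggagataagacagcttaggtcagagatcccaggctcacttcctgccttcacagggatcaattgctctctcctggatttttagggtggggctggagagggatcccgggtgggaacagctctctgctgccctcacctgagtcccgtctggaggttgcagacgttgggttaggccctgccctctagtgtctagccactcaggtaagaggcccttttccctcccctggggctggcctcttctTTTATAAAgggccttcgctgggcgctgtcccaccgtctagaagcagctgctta
Krt18, chr15:102027966-102028265, plus strand: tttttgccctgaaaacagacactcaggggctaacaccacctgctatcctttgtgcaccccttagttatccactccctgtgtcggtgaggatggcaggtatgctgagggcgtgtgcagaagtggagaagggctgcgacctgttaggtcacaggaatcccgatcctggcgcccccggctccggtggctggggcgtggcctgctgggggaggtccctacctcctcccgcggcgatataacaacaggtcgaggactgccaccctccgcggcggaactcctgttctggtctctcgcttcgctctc
Short motifs were searched on both strands and counted in 32851 promoter windows of the same length. The letters TGANTCA, bound by AP-1 factors, were found in 7.81% of all windows. GGAATG, bound by TEAD factors, was found in 14.7%. For TCF/LEF factors the letters were CTTTGAT, with 3.73%. The GC box of Sp1/KLF factors, GGGCGG, was in 35.7% of windows. For CDX factors TTTATNG was used, with 10.9%. The TATA box was searched as TATAAA, with 13.6%. Vim held a TATA box whose first base lay at -32 from the start. Krt20 held 3 TEAD matches, at -139, -134 and -74 from the start, of which the first and the second adjoin with 1 base shared, and a TATA box overlapping a CDX match. Krt8 held a TATA box that spans the annotated start on either strand, and Krt18 held none of the motifs. Krt7, on chromosome 15, had 4 GC boxes and Krt23, on chromosome 11, none of these motifs. Such matches describe these letters only. The window of Krt18 had 17 CpG dinucleotides and that of Krt8 had 6, against a median of 7 over all windows.

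Krt8 and Krt18, the main partners in simple epithelia, differed in opposite directions between MIN and adenoma. The MIN replicates had 1567, 1713 and 2703 CPM of Krt8, the adenoma replicates 849, 679 and 1016 CPM, and the sulindac replicates 1840.05, 1353 and 1371 CPM. All adenoma samples were below all others, and the sulindac samples overlapped those of MIN. The log2 fold changes of Krt8 were -1.23 (standard error 0.24) in adenoma over MIN and 0.85 (standard error 0.18) in sulindac over adenoma. The second passed the threshold without adenoma replicate 3 but not without any other of the 6 samples, where its log2 value lay between 0.69 and 0.99 over the 6 omissions. It also missed the threshold with library size alone as scaling (0.69) and in a fit of all 9 samples. Against MIN the sulindac group stood at a log2 fold change of -0.39 (standard error 0.22). Of all 50-base stretches in the longest Krt8 transcript of GENCODE M21, 29.7% recur in transcripts of other genes, and Krt8-ps alone accounts for 26.9%. How many reads of Krt8 this affects was not tested, so its level is uncertain.

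For Krt18 the MIN replicates had 438, 500.1 and 716 CPM, the adenoma replicates 839.5, 743 and 1182 CPM, and the sulindac replicates 1305, 1204 and 1193 CPM. The 3 groups did not overlap and stood in the order MIN, adenoma, sulindac. The log2 fold change in adenoma over MIN was 0.74 (standard error 0.23), which did not pass the FDR of 1% over all genes. It passed, at 0.75, in a fit blocked on replicate number, which treats same-numbered samples as pairs, although the labels do not give pairs. It also passed without MIN replicate 3, at 0.97, with library size alone, at 0.87, with DESeq2 and in a fit of all 9 samples. Sulindac over adenoma gave a log2 fold change of 0.43 (standard error 0.17), below the threshold, and 0.64 without adenoma replicate 3, where it passed. The log2 fold change in sulindac over MIN was 1.16 (standard error 0.17).

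Krt19, a small type I keratin without the usual tail that is common in simple and ductal epithelia, was lower in adenoma than in MIN, as Krt8 was. Its values were 859, 984.6 and 1487 CPM in the MIN samples, 419.6, 313.8 and 509 CPM in adenoma, and 718, 505.7 and 504 CPM with sulindac. MIN lay above both other groups in every sample, and adenoma and sulindac overlapped. The log2 fold changes were -1.42 (standard error 0.25) in adenoma over MIN, 0.49 (standard error 0.20) in sulindac over adenoma and -0.95 (standard error 0.23) in sulindac over MIN. The last did not pass the threshold without MIN replicate 2, sulindac replicate 2 or sulindac replicate 3, where it lay within the range of -1.14 to -0.69 over all omissions. It also missed it with the replicate block and without the low-count filter.

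Krt7 was higher in both adenoma-derived groups. It measured 214.5, 220.3 and 299.4 CPM in the MIN samples, 385.7, 343.9 and 501.6 CPM in adenoma and 436.2, 416.3 and 420.5 CPM with sulindac. The MIN samples were below all others, and the treated samples fell within the range of the untreated ones. The log2 fold changes were 0.75 (standard error 0.18) in adenoma over MIN and 0.79 (standard error 0.13) in sulindac over MIN. The first missed the threshold without MIN replicate 1, MIN replicate 2, adenoma replicate 1 or adenoma replicate 3, and lay between 0.58 and 0.92 over the omissions. Sulindac over adenoma gave 0.06 (standard error 0.14), or -0.10 with library size alone.

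Krt23, a type I keratin less abundant in simple epithelia than KRT18 and KRT19, was the only keratin of the 7 that passed the threshold as lower with sulindac than in untreated adenoma. MIN replicates had 42.6, 49.4 and 127.5 CPM, adenoma replicates 278.7, 250.8 and 356.8 CPM, and sulindac replicates 128.1, 120.7 and 116.8 CPM. The adenoma samples exceeded all others, and MIN replicate 3 stood apart from its group at the level of the sulindac samples. The log2 fold change was 2.02 (standard error 0.39) in adenoma over MIN. Without MIN replicate 3 it was 2.68, and without adenoma replicate 3, or without the low-count filter, it missed the threshold. In sulindac over adenoma the log2 fold change was -1.27 (standard error 0.13), and it passed with any 1 of the 6 samples left out but not in a fit of all 9 samples. Sulindac over MIN gave 0.74 (standard error 0.37), below the threshold, and 1.40 without MIN replicate 3, where it passed.

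Krt80, a type II keratin that associates with desmosomes in stratifying cells, was the least abundant of the 7 in MIN. The MIN samples had 1.05, 1.07 and 1.04 CPM from 43, 50 and 38 counts, the adenoma samples 6.235, 3.30 and 3.21 CPM, and the sulindac samples 7.34, 4.10 and 6.69 CPM. All samples from adenomas were above all MIN samples, and the treated and untreated ones overlapped. The log2 fold changes were 2.01 (standard error 0.32) in adenoma over MIN, 2.52 (standard error 0.27) in sulindac over MIN and 0.52 (standard error 0.32) in sulindac over adenoma.

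**Figure D2:**
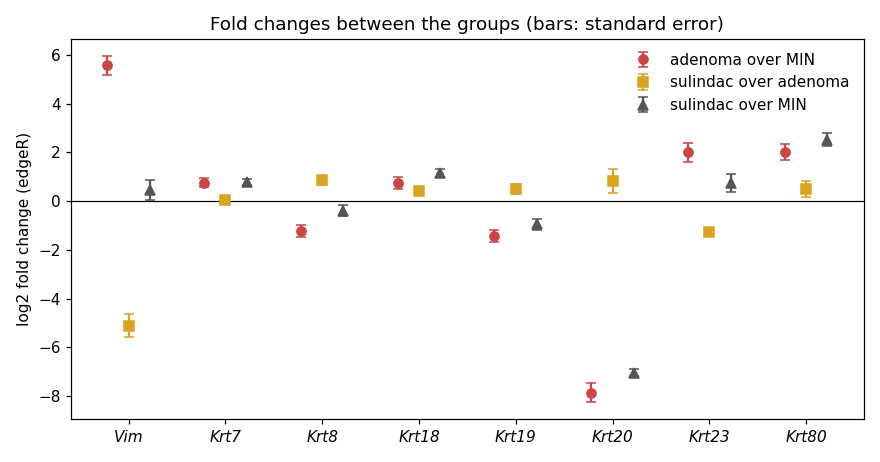
Log2 fold changes from edgeR for the 8 genes in the 3 comparisons, with standard errors as bars. Vim is at 5.58 in adenoma over MIN and -5.11 in sulindac over adenoma, while Krt20 is at -7.86 and -7.04 in the comparisons with MIN.

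At the FDR of 1%, 4 of the 8 genes (Vim, Krt7, Krt23 and Krt80) were higher and 3 (Krt8, Krt19 and Krt20) lower in adenoma than in MIN, where 18.5% of the 13744 genes tested were higher and 20.1% lower. In the fit blocked on replicate number, 5 were higher and 3 lower. In sulindac over adenoma, 1 (Krt8) was higher and 2 (Vim and Krt23) lower, where 8.32% of 12962 genes were higher and 9.10% lower. In sulindac over MIN, 3 (Krt7, Krt18 and Krt80) were higher and 2 (Krt19 and Krt20) lower, where 23.0% of 13551 genes were higher and 26.8% lower. All 8 genes passed the low-count filter in each comparison. As the genes were selected on these contrasts, nothing is read from these counts. The shares over all genes are the background for the counts in the gene lists below as well. Those lists too were chosen with earlier results of these data known. Their adjusted p-values are thus a description and not an independent test. The comparisons share samples: adenoma enters the first and the second, MIN the first and the third. The median log2 fold change of the 8 was 0.75, 0.46 and 0.59 in the order given, against -0.01, -0.01 and -0.03 over all genes tested.

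The keratin make-up of each sample was compared per transcript length, as CPM per kb of the longest GENCODE M21 transcript, over the 50 of 52 keratins with a length. The 7 keratins made up 99.7% to 99.9% of the keratin CPM per kb in MIN, 98.5% to 99.1% in adenoma and 97.7% to 98.2% with sulindac. In MIN, Krt8 was the most abundant (44.0% ± 0.807 of the total, SD, n = 3), followed by Krt19 (30.5% ± 0.536) and Krt18 (16.7% ± 0.508). In adenoma, Krt18 led with 38.8% ± 1.75, before Krt8 with 26.4% ± 0.978 and Krt19 with 15.9% ± 0.921. With sulindac, Krt18 had 38.7% ± 2.57 and Krt8 had 34.7% ± 2.02, which did not differ beyond the spread of the samples in their order, since Krt8 led in sulindac replicate 1 and Krt18 in the other 2. Krt23 took 1.90% ± 0.649 in MIN, 11.5% ± 0.483 in adenoma and 3.51% ± 0.259 with sulindac. Krt20 took 4.10% ± 0.916 in MIN and at most 0.0407% in any sample from adenomas.

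The balance of the types moved with it. The ratio of type I to type II keratins was 1.14 ± 0.0308 in MIN, 1.98 ± 0.111 in adenoma and 1.42 ± 0.0817 with sulindac (CPM per kb, SD, n = 3 each), and the 3 groups did not overlap. Krt8 over Krt18 was between 2.51 and 2.77 in MIN, 0.631 and 0.742 in adenoma, and 0.825 and 1.03 with sulindac. Such ratios within a sample do not depend on the scaling between libraries. The total of all keratins did differ between replicates, with 3078 CPM per kb in MIN replicate 3 against 1825 and 2023 in MIN replicates 1 and 2, while the shares in these samples were alike. Vim corresponded to 0.0432% to 0.119% of the keratin total in MIN, 3.04% to 8.94% in adenoma and 0.0473% to 0.187% with sulindac. At its highest, in adenoma replicate 2, Vim thus stood below Krt8, Krt18, Krt19 and Krt23 per kb. It stood above Krt7 with 6.33% of the keratin total, and above Krt20 and Krt80. In CPM the order differed, as Vim had 260.2 in that sample, below Krt7 with 343.9 and above Krt23 with 250.8. The length used was 4.094 kb for Krt7 and 2.193 kb for Vim. Shares and ratios per kb depend on the lengths used, which were not varied.

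**Figure D3:**
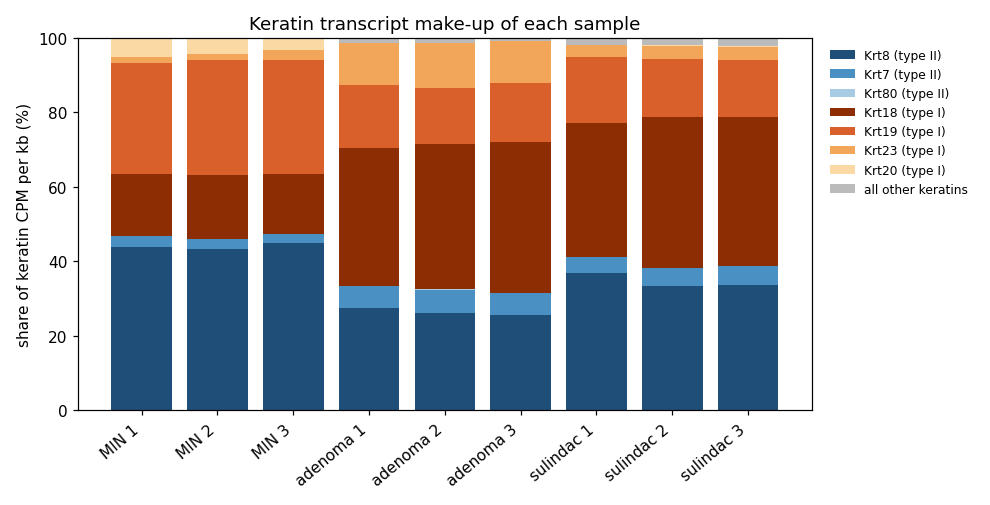
Share of each keratin in the summed keratin CPM per kb (percent) of each of the 9 samples, with type II keratins in blue and type I in brown to orange. Krt8 leads in MIN with a mean of 44.0% and Krt18 in adenoma with 38.8%, and Krt23 is widest in adenoma.

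The other 45 keratins of the table were low. In all 9 samples, 25 of them had at most 3 counts. Krt4, a type II keratin of the moist stratified lining of mouth and esophagus, was the exception. It rose from 1.30 ± 0.733 CPM in the MIN samples to 35.6 ± 6.29 CPM in adenoma and 89.4 ± 4.69 CPM with sulindac (SD, n = 3 each). Its log2 fold change was 4.79 (adjusted p = 1.61e-05) in adenoma over MIN and 1.33 (adjusted p = 0.000423) in sulindac over adenoma by edgeR's quasi-likelihood test. With sulindac Krt4 made up 1.90% ± 0.255 of the keratin CPM per kb, against 0.0281% ± 0.0205 in MIN.

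Of the 7 other keratins tested in adenoma over MIN, 3 were higher (Krt4, Krt17 and Krt39) and 2 lower (Krt83 and Krt85), with a median log2 fold change of 0.05. Over all genes tested there, 18.5% were higher and 20.1% lower. Krt17, a keratin of skin appendages and of stressed epidermis, had 0 to 2 counts in each MIN sample, 10 to 34 in adenoma and 6 to 17 with sulindac. Krt39, Krt83 and Krt85 are hair keratins. Krt83 had 63 to 86 counts in the MIN samples and 11 to 15 in adenoma (adjusted p = 0.000195 from edgeR). By the same measure, 23.2% of Krt83 recurs in other genes, mostly in Krt86. Krt85 had 14 to 25 counts in the MIN samples and 1 to 5 in adenoma, and its call was lost with the replicate block (adjusted p = 0.0146 from edgeR). It was also lost without MIN replicate 1 or 3 or adenoma replicate 1 or 3, over which its log2 fold change of -2.49 reached -2.08. Krt39 had 12 to 17 counts in the MIN samples, 24 to 45 in adenoma and 5 to 8 with sulindac. The rise of Krt39 passed in only 1 of the 6 fits with a sample left out, that without adenoma replicate 3, with log2 fold changes of 1.33 to 1.73.

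Sulindac over adenoma had 8 other keratins tested. Krt79, Krt5 and Krt4 were higher and Krt39 lower, and the median log2 fold change was 0.46. Over all genes tested there, 8.32% were higher and 9.10% lower. Krt5, the type II keratin of basal cells in stratified epithelia, had 1 to 2 counts in each MIN sample, 7 to 11 in adenoma and 27 to 103 with sulindac. Krt79, a type II keratin of hair follicle ducts, had 1 to 3, 1 to 5 and 16 to 27 counts. The calls of Krt5 and Krt79 after sulindac held in 1 and 3 of the 6 fits with a sample left out. Krt5 was lost without sulindac replicate 1 or 3 or any adenoma replicate, with log2 fold changes of 2.12 to 3.24. Krt79 was lost without adenoma replicate 2 or sulindac replicate 1 or 3, with 2.601 to 3.56. Krt39 was lost without adenoma replicate 2 or any sulindac replicate, with -2.53 to -2.12. In sulindac over MIN, 4 of 8 were higher and 2 lower (23.0% and 26.8% over all genes tested), with a median of 1.88. The higher ones were Krt4, Krt5, Krt79 and Krt14, the type I partner of KRT5 (adjusted p = 0.00063 for Krt14 from edgeR). Krt14 had 0 to 4 counts in the MIN samples, 9 to 30 in adenoma and 21 to 51 with sulindac. In sulindac over adenoma Krt14 was not called (log2 fold change 1.02, adjusted p = 0.148 from edgeR). Of Krt5 and Krt14, 12.2% and 14.4% recur in transcripts of other genes.

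Outside the keratins, 16 other intermediate filament genes were listed. Between adenoma and MIN, 11 were tested, of which 2 were higher and 4 lower (18.5% and 20.1% over all genes tested), with a median log2 fold change of -0.40. In the fit blocked on replicate number 3 were higher, with Lmna, which encodes lamins A and C, added (log2 fold change 0.63, adjusted p = 0.00416 from edgeR). Nefh, the heavy neurofilament chain, rose from 1.67 ± 0.525 to 17.4 ± 1.98 CPM (SD, n = 3 per group, edgeR adjusted p = 1e-05) and stayed at 13.7 ± 2.04 CPM with sulindac. Des, which encodes the muscle filament desmin, had 0 to 1 counts in the MIN samples, 12 to 33 in adenoma and 4 to 9 with sulindac. In contrast, Nefm, the medium neurofilament chain, had 119 to 161 counts in the MIN samples and 0 in every adenoma and sulindac sample. Set against a floor of 3 counts per library, Nefm was at least 40.5-fold lower in adenoma and at least 37.0-fold lower with sulindac than in MIN. Putting Nefm at these bounds left the list's medians at -0.40 and, in sulindac over MIN, -1.32. Nes, which encodes nestin, a filament protein of progenitor cells, had 198 to 464 counts in the MIN samples and 1 to 3 in adenoma. Bfsp1, a filament protein of the eye lens, had 57 to 90 and 4 to 7 counts.

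The nuclear lamins are the intermediate filaments of the nuclear envelope. Lmnb1 was at 156.2 ± 23.1 CPM in the MIN samples, 117.9 ± 15.3 CPM in adenoma and 52.7 ± 6.61 CPM with sulindac (SD, n = 3 each), and it fell in sulindac over adenoma (log2 fold change -1.16, adjusted p = 0.000635 from edgeR). Lmnb2 fell there too (-0.64, adjusted p = 0.00566 from edgeR), although this call held only without adenoma replicate 3 among the fits with 1 of the 6 samples left out (-0.72 to -0.53). These 2 were the called genes among the 7 tested, and 0 were higher by edgeR and by DESeq2, with 1 higher at an unadjusted edgeR p under 0.05 (median -0.64). Over all genes tested there, 8.32% were higher and 9.10% lower. Compared with MIN, sulindac samples had 2 of 10 tested genes higher, Nefh and Iffo2, and 6 lower, led by Nefm, Nes and Bfsp1. Over all genes tested there, 23.0% were higher and 26.8% lower.

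Filament linkers and desmosome genes, 25 in all, tie keratin and vimentin filaments to each other and to cell junctions. In adenoma over MIN, 2 of 20 tested were higher and 5 lower, with a median log2 fold change of -0.19. These are 10% and 25%, against 18.5% higher and 20.1% lower over all genes tested. Ppl, or periplakin, a plakin that binds keratins and vimentin, rose from 44.6 ± 6.38 to 122.9 ± 13.1 CPM (adjusted p = 3.36e-05 from edgeR) and was at 174.8 ± 36.6 CPM with sulindac (SD, n = 3 each). Dsg1c, a desmosomal cadherin, had 2 to 9 counts in the MIN samples and 11 to 27 in adenoma, and its call was lost without MIN replicate 2 or 3 or adenoma replicate 1 or 2 (2.01 to 3.18 over all omissions). Eppk1, or epiplakin, which binds simple epithelial keratins, fell from 153.2 ± 48.9 to 21.5 ± 8.16 CPM (adjusted p = 0.000134 from edgeR). Dst, or dystonin, fell from 60.3 ± 5.001 to 12.7 ± 2.73 CPM (adjusted p = 8.4e-06 from edgeR). Plec, or plectin, a general linker of intermediate filaments, fell by 0.95 on the log2 scale (adjusted p = 0.00358 from edgeR). The call of Plec was lost with the replicate block (adjusted p = 0.0108 from edgeR) and without adenoma replicate 2 or 3, with the log2 fold change between -1.07 and -0.70 over all omissions.

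With sulindac, 3 of 20 linker and desmosome genes were higher than in untreated adenoma and 0 were lower by edgeR, with a median of 0.31. These are 15% and 0%, against 8.32% and 9.10% over all genes tested. By DESeq2, 6 of the list were higher and 0 lower, and 1 was lower at an unadjusted edgeR p under 0.05. The 3 called by edgeR were Dst (log2 fold change 0.99, adjusted p = 0.0099), Dsc2, a desmosomal cadherin (0.72, adjusted p = 0.0058), and Pof1b, an actin-binding protein of epithelial junctions (0.69, adjusted p = 0.0066). All 3 calls were lost with library size alone as scaling, under which 0 genes of this list passed, and also without adenoma replicate 2, sulindac replicate 1 or sulindac replicate 3, again leaving 0. Dsc2 and Pof1b were also lost without sulindac replicate 2, Pof1b in a fit of all 9 samples, and Dst without adenoma replicate 3. Over all omissions the values lay between 0.87 and 1.18 for Dst, 0.61 and 0.86 for Dsc2, and 0.57 and 0.80 for Pof1b. In sulindac over MIN, 3 of 19 were higher (Ppl, Dsg2 and Pkp4) and 2 lower (Eppk1 and Dst), with a median of 0.06. Over all genes tested there, 23.0% were higher and 26.8% lower.

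As Vim is widely read as an EMT marker, 18 other genes of the mesenchymal side of EMT and 12 of the epithelial side were listed. On the mesenchymal side, 8 genes had at most 3 counts in every sample, and only 4 could be tested in adenoma over MIN (median 2.24). Fn1, which encodes the matrix protein fibronectin, had 3 to 8 counts in the MIN samples and rose to 24.9 ± 5.14 CPM in adenoma (SD, n = 3; log2 fold change 7.76, adjusted p = 3.14e-07 from edgeR). Unlike Vim, Fn1 stood at 24.1 ± 7.63 CPM (SD, n = 3) with sulindac. Mmp14, a membrane-bound matrix protease, rose from 5.96 ± 1.86 to 117.0 ± 5.12 CPM in adenoma and was at 53.6 ± 3.55 CPM with sulindac (SD, n = 3 each). It was the 1 gene called of the 3 tested in sulindac over adenoma (log2 fold change -1.12, adjusted p = 0.000151 from edgeR; median of the 3, -0.20). Prrx1, a mesenchymal transcription factor, had 48 to 89 counts in the MIN samples, 1 to 4 in adenoma and 1 to 2 with sulindac. Compared with MIN, in the sulindac group Fn1 and Mmp14 were higher and Prrx1 lower among 4 tested, with a median of 1.57.

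On the epithelial side, all 12 genes were tested. By edgeR, 0 were higher and 4 lower in adenoma than in MIN (median -0.23), against 18.5% and 20.1% of all genes tested. At an unadjusted edgeR p under 0.05, 1 was higher. In the fit blocked on replicate number, 1 was higher and 4 were lower. There Crb3, a polarity protein of the apical membrane, was higher (adjusted p = 0.00724 from edgeR), Epcam, an epithelial adhesion molecule, passed as lower (adjusted p = 0.00654 from edgeR), and Esrp1, an epithelial splicing regulator, no longer passed (adjusted p = 0.0117 from edgeR). Crb3 was also higher by DESeq2, in a fit of all 9 samples and with library size alone. Cldn7, a tight junction claudin, fell by 1.05 (adjusted p = 0.000573), Cdh1, which encodes E-cadherin, by 0.87 (adjusted p = 0.00126), and Ocln, which encodes occludin, by 0.63 (adjusted p = 0.00193) on the log2 scale in edgeR's test. Without adenoma replicate 3, 7 genes were called in either direction. Epcam (log2 fold change -0.63) and Elf3 (-0.39) were added as lower there, and Grhl2 (0.42) as higher. The call of Esrp1 was lost without MIN replicate 2 or 3 or adenoma replicate 2. With library size alone, Ocln and Esrp1 did not pass, leaving 2 lower and 1 higher. Cdh1 was still at 565.5 ± 65.9 CPM in adenoma and 639.1 ± 8.64 CPM with sulindac (SD, n = 3 each). In sulindac over adenoma 0 of the 12 passed by edgeR or DESeq2 (median 0.06). By edgeR, 8.32% of all genes tested there were higher and 9.10% lower. Of the 12, 1 was higher and 1 lower at an unadjusted edgeR p under 0.05. Without adenoma replicate 3, 2 passed, and with library size alone Epcam was lower (-0.56). In sulindac over MIN, 2 were higher (Crb3 and Tjp1) and 5 lower, led by Epcam, Cldn7 and Cdh1 (median -0.37). Over all genes tested there, 23.0% were higher and 26.8% lower. Tjp1, which encodes the junction protein ZO-1, passed narrowly (0.45, adjusted p = 0.00994 from edgeR). Its call was lost without MIN replicate 1 or 2 or sulindac replicate 1 or 3, with 0.37 to 0.58 over all omissions, and also with library size alone and in a fit of all 9 samples.

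**Figure D4:**
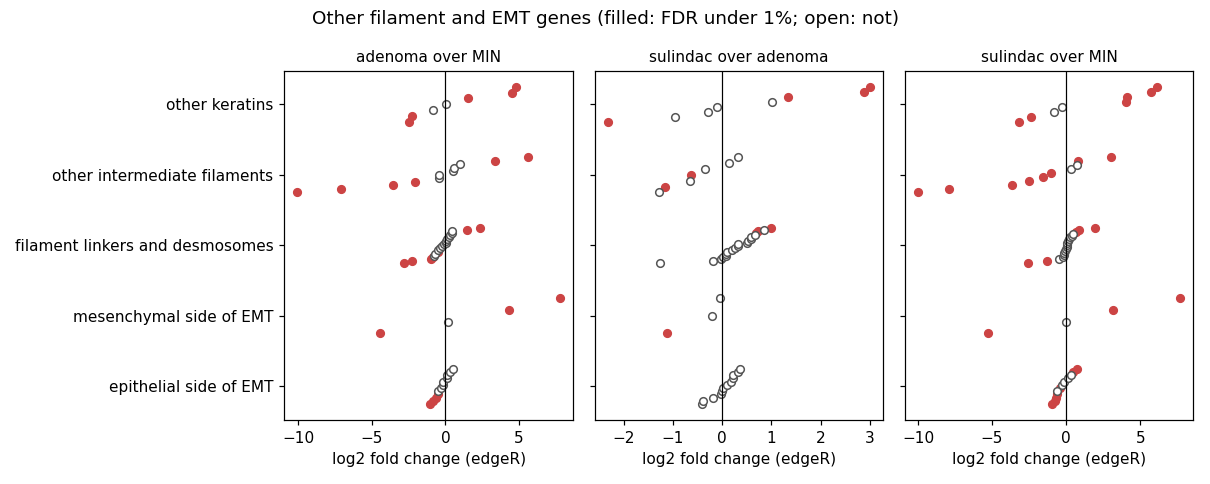
Log2 fold changes (edgeR) of the genes tested in each list, for the 3 comparisons on separate axes, with filled points for genes past the FDR of 1% and open points for the others. Fn1 is the highest point of the mesenchymal list in both comparisons with MIN, at 7.76 in adenoma, and the epithelial list stays within about 1 log2 unit of 0.

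Genes typical of other cell types were read beside Vim. Of the 12 fibroblast and smooth muscle markers, Col1a2, Col3a1, Dcn, Lum and Thy1 had 0 counts in all 9 samples. The sum of the list was 4.06 to 4.66 CPM in the MIN samples, 2.19 to 2.57 CPM in adenoma and 1.25 to 1.69 CPM with sulindac. Col1a1, a fibrillar collagen chain, was the member of the list with the most counts in adenoma, with 32 to 54 per sample, against 10 to 22 in MIN and 11 to 17 with sulindac. Pdgfrb, a pericyte and fibroblast receptor, made up most of the sum in MIN with 127 to 176 counts, and had at most 1 count elsewhere. The lower sum in adenoma than in MIN rested on Pdgfrb. Without it, an omission chosen after the values were seen, the sum was 0.584 to 1.20 CPM in the MIN samples, 2.16 to 2.57 CPM in adenoma and 1.25 to 1.69 CPM with sulindac, and it was then highest in adenoma, as Vim was. Pdgfra, a receptor of fibroblasts, had 5 to 8 counts in the MIN samples, 25 to 39 in adenoma and 12 to 20 with sulindac. The part of such cells in the level of Vim was not tested.

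Of the 12 leukocyte markers, 11 were in the table, and their sum was 5.09 to 6.84 CPM in the MIN samples, 8.49 to 16.8 CPM in adenoma and 3.18 to 4.47 CPM with sulindac. This sum, like Vim, was highest in adenoma. Among the adenoma samples it did not follow Vim, as replicate 2 had the lowest sum (8.49 CPM) and the highest Vim (260.2 CPM). The sum was also higher in MIN than with sulindac, where Vim overlapped. Most of it in adenoma was Cd68, a lysosomal protein abundant in macrophages, with 11.5 ± 4.24 CPM (SD, n = 3). Without Cd68, likewise omitted after the values were seen, the sum turned and was 3.95 to 4.84 CPM in the MIN samples, 0.559 to 0.815 CPM in adenoma and 0.336 to 0.567 CPM with sulindac. Ptprc, which encodes CD45 on all leukocytes, had 4 to 8 counts in adenoma, 0 to 1 in MIN and 0 with sulindac, and Tyrobp had 0 in all samples. Itgam had 148 to 159 counts in the MIN samples and at most 13 in the other samples. The part of such cells in the level of Vim was not tested. Of the 8 endothelial markers, Emcn had 0 counts in every sample, Cdh5 at most 1 and Kdr at most 3. Their sum, which was 12.1 to 15.4 CPM in the MIN samples, 32.6 to 42.5 CPM in adenoma and 63.0 to 77.9 CPM with sulindac, consisted mainly of Esam, a junction protein at 63.9 ± 8.81 CPM (SD, n = 3) with sulindac, and of Vwf, at 4.62 ± 2.08 CPM (SD, n = 3) in adenoma.

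The summed markers of mature enterocytes, like Krt20, were far higher in MIN than in the other groups. Within MIN they did not follow Krt20, as replicate 3 had the lowest sum (3373 CPM) and the highest Krt20 (185.5 CPM). The sum of the 9 markers was 3373 to 5285 CPM in the MIN samples, 246.3 to 277.2 CPM in adenoma and 314.9 to 367.0 CPM with sulindac. Sis, the brush border enzyme sucrase-isomaltase, was at 1603 ± 66.3 CPM in the MIN samples, 2.55 ± 0.407 CPM in adenoma and 0.687 ± 0.343 CPM with sulindac (SD, n = 3 each). Alpi, intestinal alkaline phosphatase, had 3200 to 5641 counts in each MIN sample and 1 to 9 elsewhere. Fabp1, Apoa1, Apoa4 and Lct had at most 39 counts in any sample from adenomas. Vil1, which encodes villin, made up most of the sum outside MIN, with 195.2 ± 31.9 CPM in adenoma and 320.6 ± 32.1 CPM with sulindac, and Anpep had 58.0 ± 17.0 and 16.5 ± 8.71 CPM (SD, n = 3 each). Fabp2 was at 183.1 ± 76.1 CPM in the MIN samples, 2.35 ± 0.763 CPM in the adenoma and 2.87 ± 0.120 CPM in the sulindac samples (SD, n = 3 each). The part of differentiated cells in the level of Krt20 was not tested.

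**Figure D5:**
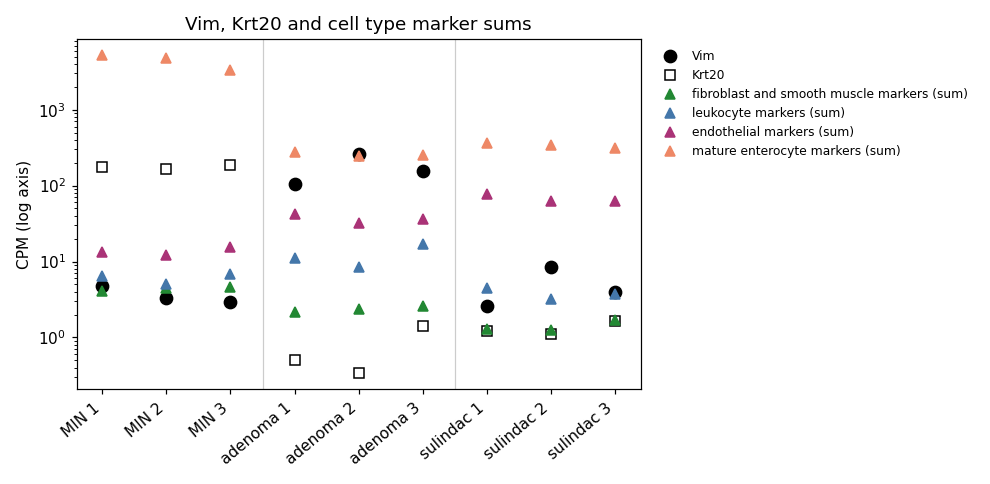
Vim, Krt20 and the summed CPM of 4 cell type marker lists (log axis) in the 9 samples, with grey lines between the groups. Vim is highest in adenoma, between 105.3 and 260.2 CPM, and Krt20 and the mature enterocyte sum are highest in MIN.

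The genes whose pattern over the 9 samples was nearest to each of the 8 were found by the root mean square difference of log2(CPM + 0.5) after centring each gene on its mean, among 13891 genes. This is a description over samples that share their groups. The added 0.5 CPM draws values well below it together, as for Zap70 in MIN and Clic5 in adenoma. Nearest to Vim were Zap70, a kinase of T cell receptor signaling, at 0.76 log2 units, Gm12888 at 0.79 and H19, an imprinted non-coding RNA of fetal tissues, at 0.85. Zap70 had 6.43, 9.53 and 18.7 CPM in the adenoma replicates, 0.20 to 0.436 CPM with sulindac and 0 in MIN. H19 had 2.78, 18.5 and 13.6 CPM in adenoma and at most 0.30 CPM elsewhere. The highest sample was adenoma replicate 2 for Vim, Gm12888 and H19 and adenoma replicate 3 for Zap70.

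Nearest to Krt20 were Clic5, a chloride intracellular channel protein found in microvilli, at 0.33, Myrfl at 0.36 and Cyp2c66, a cytochrome P450, at 0.36. Clic5 had 83.6 ± 3.30 CPM in the MIN samples and 0.0763 ± 0.0726 CPM in adenoma (SD, n = 3 each). Krt80 was nearest to Ppl at 0.20, followed by Tchh, which encodes trichohyalin, a protein that binds keratin filaments in hair follicles, at 0.21, and by 5330426P16Rik at 0.22. Tchh had 2.34 ± 0.477 CPM in the MIN samples, 8.02 ± 1.30 CPM in adenoma and 10.03 ± 1.77 CPM with sulindac (SD, n = 3 each). For Krt23 the nearest were Otop1, Gm6329 and Ccl27a, at 0.25, 0.30 and 0.31. Krt8, Krt19, Krt18 and Krt7 had closer neighbours. For Krt8 they were Metrnl at 0.12, Eps8l3, a relative of an actin-capping protein, at 0.14 and Il17rc, a subunit of the interleukin-17 receptor, at 0.17. Krt19 was nearest to Trim15 at 0.10, Fhl2 at 0.11 and Rnf186 at 0.14, Krt18 to BC029214 at 0.10, Ehbp1l1 at 0.12 and Fdx1 at 0.13, and Krt7 to Trim11 at 0.08, Thap3 at 0.09 and Ngrn at 0.09.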

How the data were processed

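Counts from RNA-seq of 9 organoid cultures were used, 3 in each of 3 groups (MIN, adenoma and sulindac), named by their titles. The authors deposited 1 table of raw counts, the number of reads on each of 23955 gene symbols, without normalization. The submitters' processing notes name RSEM, Bowtie2 2.2.4 and mm9, and the annotation is not given in the sources used here. Of 3 columns headed MIN1, the third is the sum of the first 2 in every row and was taken as MIN replicate 1. The first 2, whose nature the headers do not give, differed by little more than sampling noise. Their chi-square per gene was 1.19, and that of replicate pairs was 18.6 to 81.7. The sum was counted once.

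Totals of 30881206 to 48412477 counts set the precision. Genes kept by filterByExpr were normalized by TMM and compared with the quasi-likelihood test of edgeR 4.0.16 (glmQLFit with robust estimation) in R 4.3.3, fitting the 6 samples of the groups compared, with Benjamini-Hochberg adjustment over all genes tested. Standard errors are the log2 fold change over the square root of F. Scripts were tested on simulated data. Of 100 simulated log2 changes of 1 in size, 54 were recovered in adenoma over MIN, 69 in sulindac over adenoma and 65 in sulindac over MIN. Of 100 changes of 2 in size, 88, 92 and 94 were recovered in the same order. A gene that did not pass may thus still differ. Alternatives were no filter, library size alone, RLE size factors, at least 10 counts in every sample, 1 fit of all samples, the replicate block, each sample left out, the Wald test of DESeq2 1.42.0 and an FDR of 5%. Same-numbered adenoma and MIN samples deviated together from their group means only weakly (correlations 0.125, 0.114 and 0.192). The labels do not give pairs, and these correlations do not establish them. The main fits therefore leave the numbers out, and the replicate block is an alternative only.

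The 8 genes and all lists were chosen with earlier results of these data known. Named are the 8 genes, the other keratins or listed genes past an FDR of 1% with up to the 3 largest changes in each direction per list, the markers with a group mean of at least 1 CPM, and the 3 nearest genes of each of the 8. Marker genes at or near 0, Pdgfra, Ptprc, and listed genes called only in other fits, were named after their values were seen. A further enterocyte marker was left out for a reason unrelated to its values and is not reported here. Shared 50-base stretches and lengths came from GENCODE M21 (GRCm38), which is not the build of the counts.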

Additional observations from a re-analysis of the deposited data

How the results depend on the processing

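No log2 fold change of the 8 genes past the threshold changed sign under any alternative. With each sample left out in turn, the log2 fold change of Krt20 lay between -8.69 and -7.50 in adenoma over MIN, between -7.23 and -6.91 in sulindac over MIN and between 0.48 and 1.64 in sulindac over adenoma. That of Krt23 lay between 1.73 and 2.68 in adenoma over MIN and between 0.46 and 1.40 in sulindac over MIN, and that of Krt80 between 1.63 and 2.18 in adenoma over MIN. In 1 fit of all samples, only 1 of the 8 genes, Vim, passed in sulindac over adenoma, against 3. Krt8 and Krt23 did not.

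Library size alone moved the median of all log2 fold changes from -0.01 to 0.12 in adenoma over MIN and from -0.01 to -0.18 in sulindac over adenoma. The genes called higher and lower went from 2549 and 2765 to 3108 and 2282 in the first, and from 1078 and 1179 to 603 and 1983 in the second. In the second, it left 0 linker and desmosome genes called and gave 1 epithelial gene.

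Filters set the counts of low genes by construction, since they change which genes are tested. Without a filter, 9 other keratins were called in adenoma over MIN and 10 in sulindac over MIN, and 5 linker and desmosome genes in sulindac over adenoma. At least 10 counts in every sample left 3, 1 and 1 other keratins in adenoma over MIN, sulindac over adenoma and sulindac over MIN, 1 and 4 other intermediate filaments in adenoma over MIN and sulindac over MIN, and 1 mesenchymal gene in each of these. An FDR of 5% gave 12, 8 and 8 linker and desmosome genes in the 3 comparisons and 1 epithelial gene in sulindac over adenoma. DESeq2 gave 6 linker and desmosome genes in sulindac over adenoma, and the cause was not tested.

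With each sample left out, called genes in adenoma over MIN ranged from 3 to 5 for other keratins, 4 to 8 for linkers and desmosomes and 3 to 7 for the epithelial side. In sulindac over adenoma they ranged from 1 to 3, 0 to 5 and 0 to 2, and from 1 to 2 for other intermediate filaments. Calls over all genes also shifted with the sample left out, in either direction. In sulindac over adenoma they went from 1078 higher and 1179 lower to 423 and 386 without sulindac replicate 3. Without adenoma replicate 3 they went to 1403 and 1488. With the replicate block, 5 instead of 4 of the 8 genes were higher in adenoma over MIN, and in sulindac over MIN Krt19 (-0.93) no longer passed. In adenoma over MIN the block also added Lmna, Crb3 and Epcam and dropped Krt85, Plec and Esrp1 among the listed genes. In the comparisons with sulindac the same-numbered samples had correlations of -0.08 to 0.40, and no main fit used pairs in any comparison. Counts of up to 3 per sample, as for Nes, Des and Nefm in some groups, do not show whether a gene is absent.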
